A study of Mus musculus with 8 samples.

Results

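The genes described here are 47 mouse genes of the cell cycle and of DNA replication, measured by every probe that carries one of the 47 names in the scanner files. They had 76 probes and 139 spots per array, of 41174 probes in all, and 33 of the 47 genes were measured well enough to be tested, among 14881 genes and transcripts tested. RNA levels were read on 8 one-colour arrays from primary aortic smooth muscle cells of C57BL/6 mice, the cells that contract the vessel wall, grown in medium with 20% heat-inactivated fetal bovine serum. Every culture received 1 µM angiotensin II (AngII), a peptide hormone that contracts arteries and stimulates growth of smooth muscle. In 4 cultures AngII was given alone, and in the other 4 it was given with 200 ng/ml cyclosporin A (AngII+CsA), an inhibitor of the phosphatase calcineurin. Cells without AngII were not analysed here, so no value below is a response to AngII. Per the labels the cultures were independent, and each group has numbers 1 to 4.

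Cells divide by passing through G1, S, G2 and M phase. In G1, D-type cyclins with Cdk4 and then E-type cyclins with Cdk2 phosphorylate the retinoblastoma protein, which releases E2F factors that switch on the genes for DNA synthesis. Origins of replication are loaded with the Mcm helicase and fired, and A- and B-type cyclins with Cdk1 then drive G2 and mitosis, where kinases, motors and the anaphase-promoting complex separate the chromosomes. CDK inhibitors such as p21 and p27 hold the cycle back. Healthy aortic smooth muscle cells rarely divide, while cultured ones re-enter the cycle in serum and lose contractile proteins.

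Each array held 43379 spots, and between 42.8% and 51.7% of them were well above background, with no saturated spot. Levels are log2 intensities minus the 75th percentile of the same array, so they compare arrays for 1 probe and not probes with each other. Arrays with the same number shared a slide and a scan, so culture, slide and scan cannot be told apart as the source of a difference among numbers. Rcan1, a calcineurin-dependent gene that checks the treatment, was at 4.55, 4.44, 5.69 and 5.35 on the AngII arrays of numbers 1 to 4 and 2.15, 2.32, 3.68 and 2.83 on the AngII+CsA arrays, and the AngII+CsA values were below the AngII values in every pair. Its difference was -2.26 (limma with the replicate block, Benjamini-Hochberg adjusted p = 0.0131), and it did not pass on the groups alone (limma adjusted p = 0.9999). With the block, no gene passed once any 1 number was left out or with no filter on dim probes. Of 10 smooth muscle markers, 9 were tested and 7 were above background on all arrays, and 5 of 6 fibroblast markers were above background on all 8. Of 9 endothelial markers 1 was above background on all arrays and 3 on none (Pecam1, Cdh5 and Tie1), of 6 macrophage markers 2 on all (Cd68 and Csf1r) and 2 on none (Adgre1 and Itgam), and of 6 T cell markers 2 on all and 1 on none (Cd8a).

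Cell cycle genes are often grouped by short sequences near their start sites, and the promoters of 6 members are shown for that reason: genes of the replication and mitotic programmes that the arrays detected (Mcm6, Mcm5, Cdc2a, which is now named Cdk1, and Ube2c), 1 that was above background on a single array (Top2a) and an inhibitor far brighter in replicate number 1 than in the other numbers (Cdkn2b). Each line gives the 200 bases before the start site, 5′ to 3′, from RefSeq in build GRCm38.p6. Capitals mark the E2F letters TTTCCCGC, TTTCGCGC, TTTGCCGC and TTTGGCGC, the cell cycle homology letters TTTGAA and the letters CCAAT, on either strand, and some of these overlap each other.
Mcm6, chr1:128359706-128359905, minus strand: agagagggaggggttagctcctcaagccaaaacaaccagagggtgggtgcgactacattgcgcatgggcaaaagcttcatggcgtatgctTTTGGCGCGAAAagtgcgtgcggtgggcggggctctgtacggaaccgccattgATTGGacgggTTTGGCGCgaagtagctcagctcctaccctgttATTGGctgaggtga
Mcm5, chr8:75109309-75109508, plus strand: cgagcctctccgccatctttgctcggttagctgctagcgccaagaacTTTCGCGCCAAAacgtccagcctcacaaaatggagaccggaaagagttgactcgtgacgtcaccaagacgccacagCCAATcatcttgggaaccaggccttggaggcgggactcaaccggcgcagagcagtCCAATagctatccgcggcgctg
Cdc2a, chr10:69352913-69353112, minus strand: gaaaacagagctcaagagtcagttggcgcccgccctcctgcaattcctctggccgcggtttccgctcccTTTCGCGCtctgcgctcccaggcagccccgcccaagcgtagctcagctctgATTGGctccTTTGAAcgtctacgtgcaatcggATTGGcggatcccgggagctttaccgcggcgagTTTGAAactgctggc
Ube2c, chr2:164769729-164769928, plus strand: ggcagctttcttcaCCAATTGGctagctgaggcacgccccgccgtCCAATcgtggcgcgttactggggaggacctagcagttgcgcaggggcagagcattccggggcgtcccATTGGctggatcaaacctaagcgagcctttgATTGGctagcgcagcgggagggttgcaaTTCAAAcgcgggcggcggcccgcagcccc
Top2a, chr11:99024190-99024389, minus strand: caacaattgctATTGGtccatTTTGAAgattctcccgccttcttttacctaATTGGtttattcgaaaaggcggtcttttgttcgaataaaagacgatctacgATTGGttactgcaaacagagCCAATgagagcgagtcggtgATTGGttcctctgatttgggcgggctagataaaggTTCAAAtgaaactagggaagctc
Cdkn2b, chr4:89311033-89311232, minus strand: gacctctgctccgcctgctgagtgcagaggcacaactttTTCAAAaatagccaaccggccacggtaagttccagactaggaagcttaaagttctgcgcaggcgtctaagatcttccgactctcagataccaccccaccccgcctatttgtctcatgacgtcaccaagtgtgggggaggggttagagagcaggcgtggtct
Windows of 300 bases (250 before and 50 after the start site) were matched for 38 of the 47 members. The E2F letters were in 8 of the 38 (21.05%), against 2.60% of 27025 genes with such a window. Those letters occurred more than once before Mcm6 and Mcm5, where overlapping copies lay on both strands. TTTGAA was in 15 (39.5%), against 20.2% of all genes, and CCAAT in 29 (76.3%), against 41.1%. The AP-1 letters TGANTCA were in none of the 38, against 8.97% of all genes, and the NFAT-like letters GGAAAA in 7 (18.4%), against 26.1%. Among the matched members that passed the detection filter 7 of 26 held TTTGAA, and among those that did not 8 of 12 did. For the E2F letters the counts were 6 of 26 and 2 of 12, for CCAAT 20 of 26 and 9 of 12, and for GGAAAA 6 of 26 and 1 of 12. A link between letters and detection was not tested. A match describes letters in this window, not a bound site.

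Detection on the arrays varied within most roles. Of the 47 members, 27 (57.4%) had a probe well above background on all 8 arrays, against 43.1% of all genes, and 9 (19.1%) were above background on no array, against 37.3%. Another 6 members were above background on 4 to 7 arrays and 5 on 1 to 3. By probe, 39 of 76 were above background on all arrays, against 38.9% of all probes, and 25 of 76 on none, against 41.5%. The 33 tested members were 70.2% of the set, against 51.7% of all genes, and 46 of 76 probes reached 4 arrays, against 47.4% of all probes. All 7 G1 cyclins and kinases and all 3 transcription factors E2f1, Myc and Foxm1 passed the filter of 4 arrays, as did 5 of 6 S and M phase genes, 2 of 4 spindle genes and 3 of 5 CDK inhibitors. Of 8 origin genes, 4 passed: Mcm3, Mcm6 and Mcm7 on all arrays and Mcm5 on 6, while Cdc6, Cdc45l (now Cdc45) and Mcm2 were above background on no array and Mcm4 on 3. Of 9 mitotic kinase, checkpoint and anaphase genes, Bub1, Bub1b, Plk1, Cdc20 and Ube2c were detected on all arrays, Birc5 on 3, and Aurka, Aurkb and Ttk on none.

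**Figure D1:**
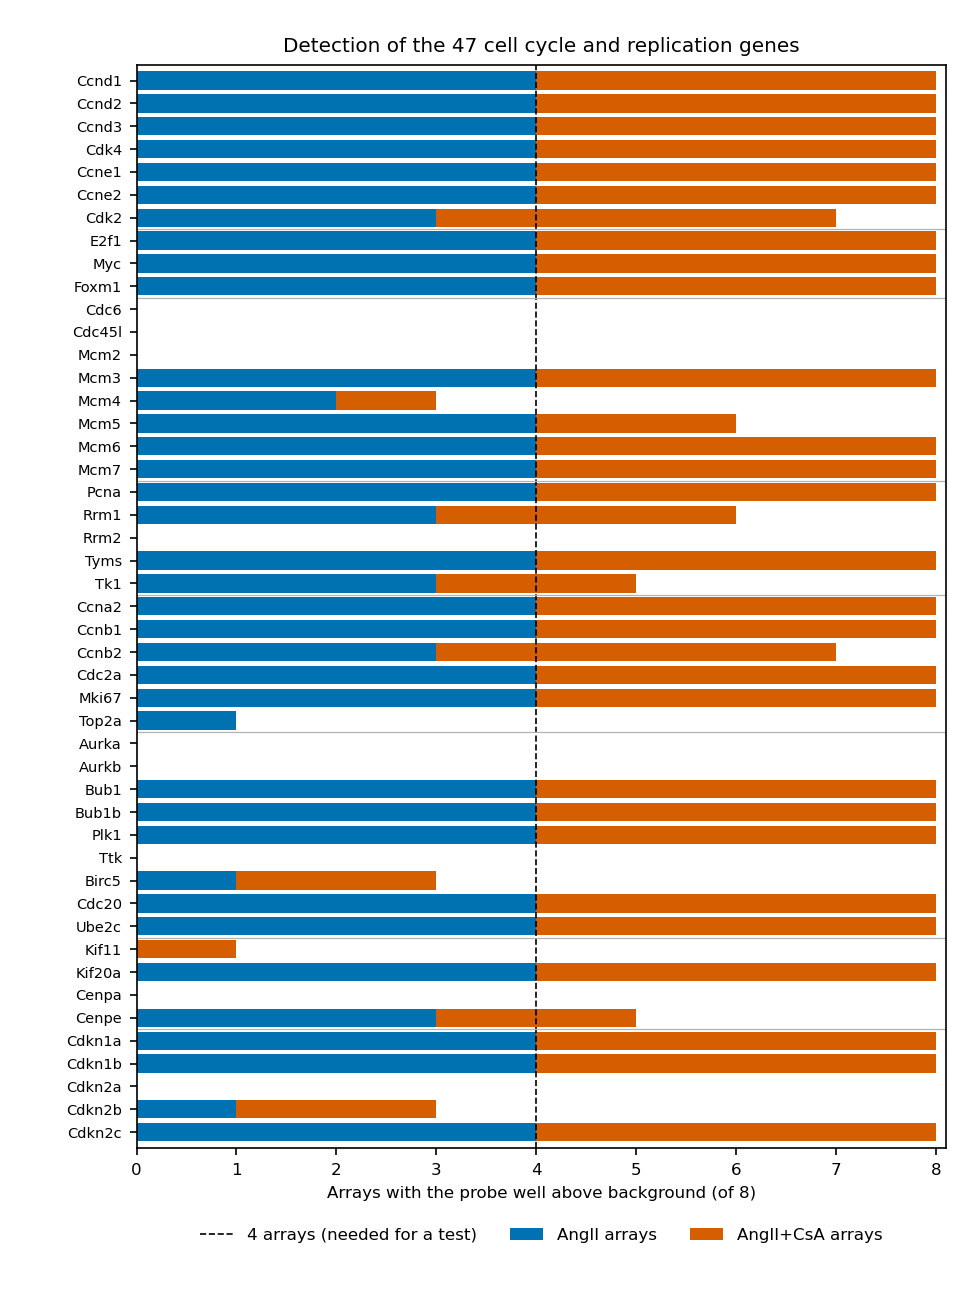
The number of arrays (of 8) on which the probe of each of the 47 members was well above background, split into AngII and AngII+CsA arrays, with members grouped by role and a dashed line at the 4 arrays needed for a test. Bars reach 8 arrays for 27 members and are absent for 9, among them Aurka, Aurkb, Ttk, Rrm2 and Cenpa.

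Subunits of 1 enzyme differed in detection. Rrm2, the regulated subunit of ribonucleotide reductase, and the centromeric histone Cenpa were above background on no array, while Rrm1, the other reductase subunit, was on 6. The mitotic motor Kif11 was above background only on the AngII+CsA array of number 1, at -2.41, with its other 7 arrays between -6.15 and -5.17. Top2a, the topoisomerase that untangles replicated DNA, was above background only on the AngII array of number 4, at -1.68, against a range of -5.76 to -4.60 elsewhere. Both other Top2a probes were also highest on that array, at -4.12 and -3.71, but not above background there. Detection depended on the probe. On at least 1 array, 1 of 2 probes was above background for Mki67, Cdc2a, Cdk2, Mcm4 and Rrm1. For Ccnb1, Cenpe, Kif11 and Top2a it was 1 of 3. Rrm2 had only 1 probe, and whether its contrast with Rrm1 lay in the probes was not tested. Whether probes missed other members was not tested either. In such RNA from whole cultures, fewer cycling cells and less of a transcript per cell cannot be told apart.

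Levels differed among replicate numbers for 23 of the 33 tested members (69.7%; limma moderated F test with treatment as a term, Benjamini-Hochberg adjusted over all genes), near the 68.1% of all 14857 genes in that test. The difference between the highest and the lowest number had a median of 0.88 log2 over the members and 0.90 over all genes. It was above 1 log2 for 13 of 33 members (42.4% of all genes) and above 2 log2 for 1 (7.12% of all genes). Share and size thus lay near those of all genes, and what follows describes which member was high in which replicate number. Cyclin D1 and Ccne2 had the widest ranges of the 33, at 2.34 and 1.95. Cyclin D1 was lowest in number 3, and Rrm1, Ccne2, Myc, Pcna and Cdkn1b were highest in number 1.

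**Figure D2:**
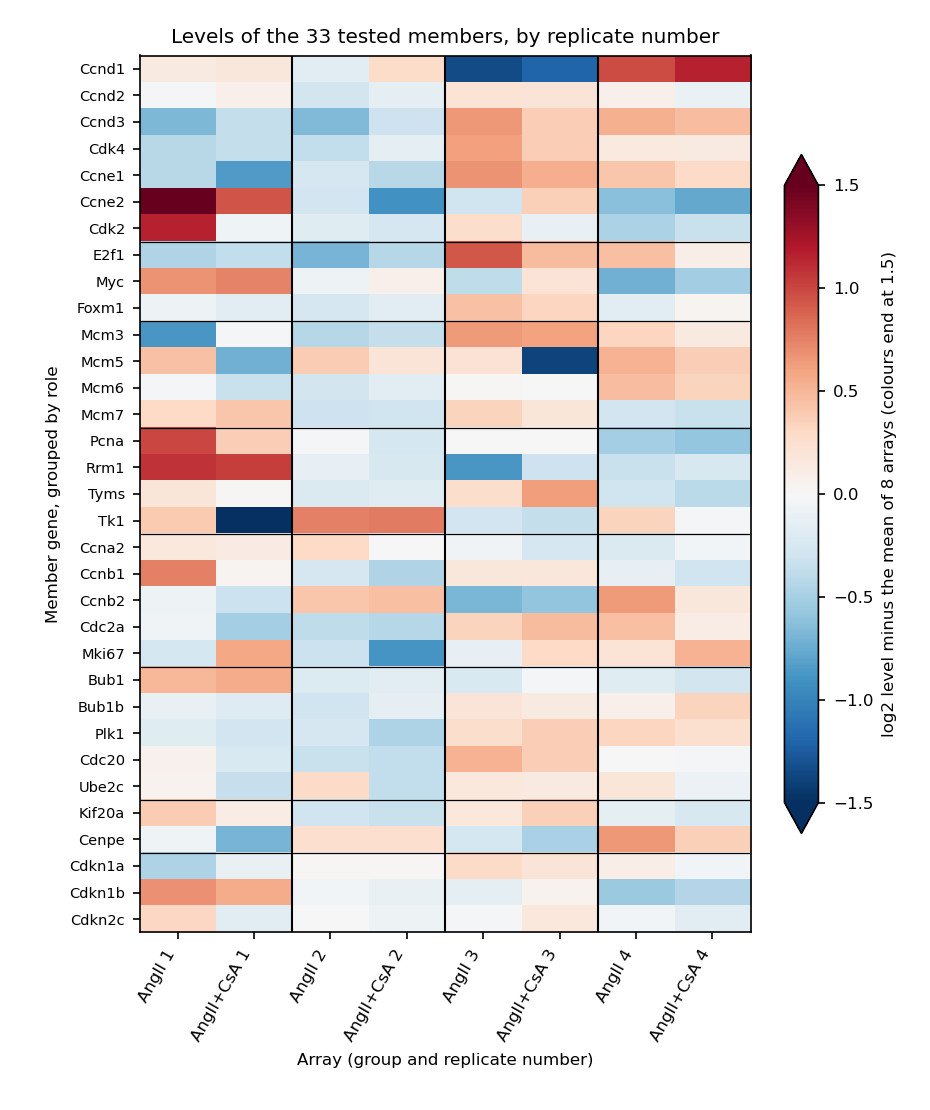
Levels of the 33 tested members on the 8 arrays, as log2 level minus the gene's mean over the arrays, with arrays ordered by replicate number, members grouped by role and colours ending at 1.5. Both arrays of a number mostly share a colour: Ccnd1 was low in number 3 and high in number 4, and Ccne2 and Rrm1 were high in number 1.

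These contrasts depended in part on the scaling. The median over all genes of a number minus the mean of the other numbers was -0.15, -0.08, 0.09 and 0.08 for numbers 1 to 4, beside -0.11, -0.28, 0.19 and 0.03 for the members. With the 75th percentile taken over probes above background on every array, the medians of all genes were -0.21, 0.17, -0.24 and 0.23, and the members' median for number 3 turned to -0.14. Single contrasts of a number against the others passed for 22 members in 43 cases. Number 1 was higher for 8 members and lower for 5 (21.5% and 29.7% of all genes), and number 2 for 1 and 3 (7.29% and 6.92%). Number 3 was higher for 10 and lower for 4 (23.7% and 13.3%), and number 4 for 6 and 6 (19.2% and 18.8%). The split for number 3 reversed with that other percentile, to 2 members higher and 9 lower (1060 and 4497 of all genes), and was 4 higher and 2 lower with quantile normalization (1197 and 1441 of all genes). By mean, numbers 1 to 4 were highest for 10, 3, 14 and 6 members (27.0%, 15.2%, 34.0% and 23.8% of all genes) and lowest for 8, 11, 5 and 9 (36.3%, 20.1%, 17.0% and 26.6%). Of the 43 cases, 19 passed under all 4 other scalings or background corrections as well. Under every setting that held the gene 7 passed. They were Ccnd1 lower in number 3, Ccne1 lower in number 1, and Ccne2, Rrm1, Myc, Pcna and Cdkn1b higher in number 1. Rrm1 was not held in the setting that kept only probes above background on all 8 arrays. With normexp background correction 3 of the 43 turned sign, those of Ccnb2 in number 2, Cenpe in number 3 and Rrm1 in number 3.

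Among the G1 genes, cyclin D1 (Ccnd1), the growth factor-regulated partner of Cdk4, had the widest range among the tested members. Its level was -0.22, -0.50, -1.69 and 0.63 on the AngII arrays of numbers 1 to 4 and -0.18, -0.07, -1.55 and 0.81 on the AngII+CsA arrays. Number 3 was lowest and number 4 highest on both arrays, and the values of these numbers did not overlap with any other. The numbers spanned 2.34 log2, or 5.06-fold, and number 3 differed from the others by -1.70 ± 0.13 (SE; limma adjusted p = 0.00161). With normexp background correction the contrasts of numbers 3 and 4 shrank to -0.74 and 0.80, and both passed. Number 4 was higher by 1.42 ± 0.13 (adjusted p = 0.00395), which missed the threshold without its AngII array (adjusted p = 0.076) or its AngII+CsA array (adjusted p = 0.0556). The files place the Ccnd1 probe at chr7_random:7568179-7568238 in build mm7.

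Cyclin D3 (Ccnd3, probe at chr17:45735858-45735917, mm7) ran the other way for number 3. It was at 2.79, 2.80, 4.12 and 4.00 on the AngII arrays of numbers 1 to 4 and 3.11, 3.16, 3.83 and 3.93 on the AngII+CsA arrays. Numbers 3 and 4 lay above numbers 1 and 2 on every array (adjusted p = 0.00822 among numbers, limma F test). Its kinase Cdk4 was at 2.30, 2.35, 3.34 and 2.87 on the AngII arrays of numbers 1 to 4 and 2.37, 2.60, 3.098 and 2.86 on the AngII+CsA arrays. Number 3 was highest on both arrays, and the spread over numbers was 0.88 (adjusted p = 0.0142, and 0.0594 without number 3). Cyclin D2 (Ccnd2) depended on its probe: the brightest had a range over numbers of 0.40 (adjusted p = 0.186), while the others had means of 1.72, 0.17, 1.28 and 0.49 and of 2.27, 0.94, 1.94 and 1.09 over numbers 1 to 4 (adjusted p = 0.00265 and 0.00425, tested probe by probe). Both latter probes were highest in number 1 and lowest in number 2.

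The E-type cyclins, which activate Cdk2 at the entry to S phase, had different orders among the numbers. Ccne1 (probe at chr7:34990690-34990713, mm7) was at 3.26, 3.43, 4.35 and 4.09 on the AngII arrays of numbers 1 to 4 and 2.83, 3.26, 4.22 and 3.96 on the AngII+CsA arrays. The interval given is the same for both Ccne1 probes and is shorter than a probe of 60 bases. Number 1 was lowest and number 3 highest in both groups, and number 1 differed from the others by -0.84 ± 0.12 (limma adjusted p = 0.00296). Ccne2 (probe at chr4:11130171-11130230, mm7) was at 0.44, -1.43, -1.44 and -1.76 on the AngII arrays of numbers 1 to 4 and -0.20, -2.04, -0.78 and -1.90 on the AngII+CsA arrays. Number 1 was highest in both groups, by 1.68 ± 0.26 over the others (adjusted p = 0.00357), and no array of another number reached it. With normexp background correction this difference was 0.75 and passed. The F test of Ccne2 (adjusted p = 0.00906) missed the threshold without number 1 (adjusted p = 0.166) and without its AngII array (adjusted p = 0.0516). A second probe of each gene gave the same order at the extremes, with number means of 0.13, 0.42, 1.42 and 1.01 for Ccne1 and -1.35, -2.89, -2.53 and -3.27 for Ccne2. Cdk2 itself was at -1.51, -2.85, -2.41 and -3.15 on the AngII arrays of numbers 1 to 4 and -2.74, -2.92, -2.78 and -3.00 on the AngII+CsA arrays, above background on 7 arrays, and did not pass among numbers (adjusted p = 0.113), though it did without its AngII+CsA array of number 1 (adjusted p = 0.0123).

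**Figure D3:**
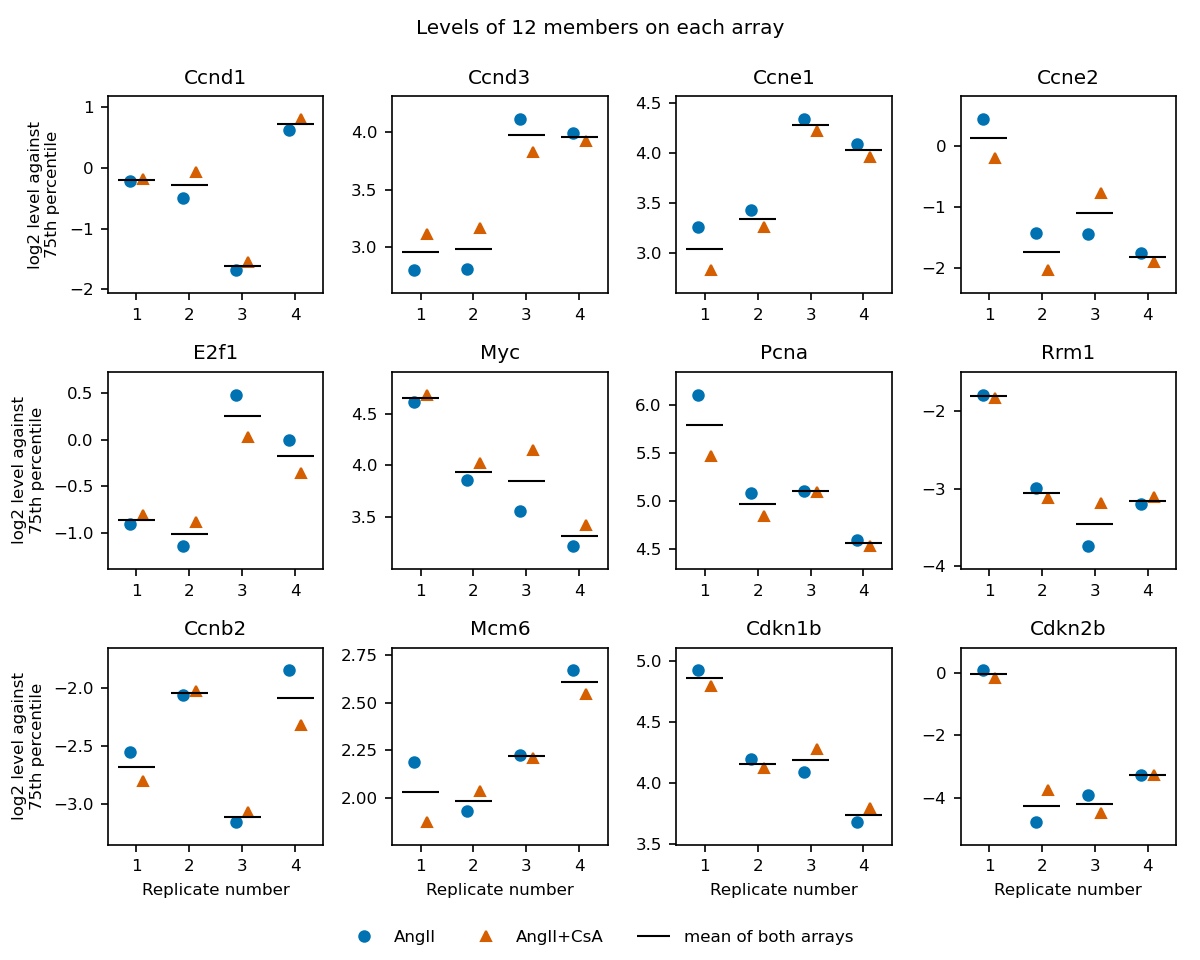
Levels (log2 against the 75th percentile of the array) of 12 members on each array by replicate number, with circles for AngII, triangles for AngII+CsA and a line at the mean of both arrays; each panel has its own scale. Ccnd1 was lowest in number 3, Ccne1 and Ccnd3 were low in number 1, and Ccne2, Rrm1, Myc, Pcna, Cdkn1b and Cdkn2b were highest in number 1.

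Of the transcription factors, E2f1, which switches on S phase genes, was at -0.90, -1.14, 0.48 and -0.0029 on the AngII arrays of numbers 1 to 4 and -0.81, -0.88, 0.02 and -0.35 on the AngII+CsA arrays. Numbers 3 and 4 lay above numbers 1 and 2 on every array (adjusted p = 0.00927), as for Ccnd3. Number 3 was higher by 0.94 ± 0.18 (adjusted p = 0.0109, and 0.101 without its AngII array), and by 0.54 with normexp background correction. Myc, a growth-promoting factor, was at 4.61, 3.86, 3.56 and 3.22 on the AngII arrays of numbers 1 to 4 and 4.68, 4.02, 4.15 and 3.42 on the AngII+CsA arrays (probe at chr15:62064157-62064216, mm7). Number 1 was highest and number 4 lowest in both groups, and number 1 was higher by 0.94 ± 0.14 (adjusted p = 0.00319). Number 4 differed by -0.83 ± 0.14 (adjusted p = 0.00864), with adjusted p = 0.117 without its AngII array and 0.105 without its AngII+CsA array. All 3 Myc probes had their highest mean in number 1 and their lowest in number 4. Foxm1, which drives late cell cycle genes, had number means of -0.14, -0.22, 0.36 and -0.07 and an adjusted p of 0.0451 that missed the threshold under several other settings.

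The detected Mcm genes, which encode the hexameric replicative helicase, differed in where they were high. Mcm7 was at 3.40, 2.79, 3.43 and 2.81 on the AngII arrays of numbers 1 to 4 and 3.52, 2.79, 3.27 and 2.77 on the AngII+CsA arrays. Numbers 1 and 3 lay above numbers 2 and 4 on every array (adjusted p = 0.0132). Mcm6 was at 2.19, 1.93, 2.23 and 2.67 on the AngII arrays of numbers 1 to 4 and 1.87, 2.04, 2.21 and 2.55 on the AngII+CsA arrays, with number 4 highest in both groups (adjusted p = 0.0397), and Mcm3 had number means of -0.85, -0.79, 0.23 and -0.17 (adjusted p = 0.0264). Another Mcm3 probe had -1.10, -0.84, -0.71 and -0.23 and was highest in number 4 (adjusted p = 0.0164, tested probe by probe). For Mcm4, which was not tested, the 3 arrays above background were those of number 1 and the AngII array of number 2, and its level was -2.94, -3.61, -4.44 and -4.86 on the AngII arrays of numbers 1 to 4 and -3.23, -4.32, -5.47 and -4.07 on the AngII+CsA arrays. Mcm5 was at -2.58, -2.64, -2.80 and -2.50 on the AngII arrays of numbers 1 to 4 and -3.74, -2.83, -4.41 and -2.65 on the AngII+CsA arrays, above background on all 4 AngII arrays and on 2 AngII+CsA arrays, and did not pass among numbers (adjusted p = 0.13).

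Pcna, the sliding clamp of the replicative polymerases, was at 6.11, 5.08, 5.10 and 4.60 on the AngII arrays of numbers 1 to 4 and 5.47, 4.84, 5.10 and 4.53 on the AngII+CsA arrays (probe at chr2:131990537-131990674, mm7). Number 1 was highest and number 4 lowest in both groups, with number 1 higher by 0.91 ± 0.16 (adjusted p = 0.00477). Number 4 differed by -0.72 ± 0.16 (adjusted p = 0.0159, and 0.2 and 0.103 without its AngII or its AngII+CsA array). Rrm1, the large subunit of the enzyme that makes deoxynucleotides, was at -1.79, -2.99, -3.74 and -3.20 on the AngII arrays of numbers 1 to 4 and -1.83, -3.12, -3.18 and -3.11 on the AngII+CsA arrays (probe at chr7:98514808-98514868, mm7). Both arrays of number 1 lay above all others, by 1.41 ± 0.16 (adjusted p = 0.0015). Since neither array of number 3 was above background, number 1 was at least 2.46-fold higher than number 3. With normexp background correction the Rrm1 contrast fell to 0.25 (limma adjusted p = 0.0303), and the F test of Rrm1 among numbers missed the threshold.

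Tyms, which makes thymidylate, depended on its probe. Its brightest probe (adjusted p = 0.0265) had number means of 0.63, 0.34, 0.98 and 0.18 and another had 0.36, -0.15, 0.63 and -0.17, both highest in number 3. These probes share a run of 23 bases, in capitals, and so measure overlapping stretches:
Tyms first probe: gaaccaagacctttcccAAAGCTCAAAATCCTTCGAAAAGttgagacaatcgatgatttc
Tyms second probe: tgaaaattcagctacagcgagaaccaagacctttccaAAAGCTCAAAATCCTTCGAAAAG
The third Tyms probe had means of -3.07, -2.23, -3.25 and -2.34, highest in number 2 and lowest in number 3 (adjusted p = 0.018, tested probe by probe). That probe was above background on 7 arrays, and its AngII array of number 3, at -3.56, was not among them. Its low mean in number 3 thus rests in part on signal near background. The mean of all Tyms probes did not pass (adjusted p = 0.708, limma F test). Tk1, the thymidine salvage kinase, was at -2.57, -2.21, -3.26 and -2.64 on the AngII arrays of numbers 1 to 4 and -4.57, -2.19, -3.33 and -2.99 on the AngII+CsA arrays, above background on 5 arrays. Its AngII+CsA array of number 1 was the lowest, and the gene did not pass among numbers (adjusted p = 0.121).

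Cyclin B2 (Ccnb2), a mitotic cyclin, was at -2.55, -2.06, -3.16 and -1.84 on the AngII arrays of numbers 1 to 4 and -2.80, -2.02, -3.08 and -2.31 on the AngII+CsA arrays. Numbers 2 and 4 lay above numbers 1 and 3 on every array. The adjusted p of Ccnb2 among numbers (limma F test) was 0.00873, below the threshold whichever array was left out. With normexp background correction it was 0.608. Ccnb2 was above background on 7 arrays and not on the AngII array of number 3. Its AngII+CsA array of number 3, at -3.08, lay close to the lowest signal above background there, -3.19. Cyclin B1 (Ccnb1) was at -0.51, -1.52, -1.10 and -1.40 on the AngII arrays of numbers 1 to 4 and -1.23, -1.73, -1.11 and -1.56 on the AngII+CsA arrays, with its AngII array of number 1 highest (adjusted p = 0.0443). Cdc2a, the kinase both bind, had number means of -0.76, -0.88, -0.07 and -0.20, with every array of numbers 3 and 4 above every array of numbers 1 and 2 (adjusted p = 0.021). Cyclin A2 (Ccna2), which acts in S phase and G2, spanned only 0.30 over numbers, and the proliferation marker Mki67 spanned 0.97; neither passed (adjusted p = 0.247 and 0.101).

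In the mitotic group, the spindle checkpoint kinase Bub1 was at -1.63, -2.33, -2.35 and -2.30 on the AngII arrays of numbers 1 to 4 and -1.58, -2.28, -2.14 and -2.40 on the AngII+CsA arrays. Both arrays of number 1 lay above all others, which lay between -2.40 and -2.14 (adjusted p = 0.0146, and 0.745 without number 1). The mitotic kinase Plk1 had number means of 0.34, 0.22, 0.89 and 0.85 and the anaphase activator Cdc20 had 1.21, 0.94, 1.74 and 1.28 (adjusted p = 0.0158 and 0.0178). Plk1 was higher on all arrays of numbers 3 and 4 than on those of 1 and 2. Bub1b, a checkpoint kinase, and Ube2c, the ubiquitin-conjugating enzyme of the anaphase-promoting complex, did not pass (adjusted p = 0.0948 and 0.5). Kif20a, a motor of late mitosis, had number means of 2.49, 1.94, 2.51 and 2.06 (adjusted p = 0.0386), and the centromere motor Cenpe had -3.16, -2.53, -3.16 and -2.28 (adjusted p = 0.0141, above background on 5 arrays).

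Among the CDK inhibitors, 1 gene was far brighter in replicate number 1 than elsewhere. Cdkn2b (p15), an inhibitor of Cdk4 and Cdk6, was at 0.07, -4.76, -3.90 and -3.25 on the AngII arrays of numbers 1 to 4 and -0.17, -3.74, -4.46 and -3.26 on the AngII+CsA arrays. Both arrays of number 1 were above background, as was the AngII+CsA array of number 4, and no array of numbers 2 and 3 was. With dim arrays set to the lowest signal above background, number 1 was at least 13.5-fold higher than number 2 and at least 8.34-fold higher than number 3. The filter kept this gene out of the test. Cdkn2a, its neighbour, which encodes p16 and p19Arf, was above background on no array.

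Cdkn1b (p27), an inhibitor of cyclin E and Cdk2, was at 4.92, 4.19, 4.09 and 3.68 on the AngII arrays of numbers 1 to 4 and 4.80, 4.12, 4.28 and 3.79 on the AngII+CsA arrays (probe at chr6:134939519-134939578, mm7). Number 1 was highest and number 4 lowest in both groups, the order also seen for Myc and Pcna, and number 1 was higher by 0.83 ± 0.13 (adjusted p = 0.00314). Number 4 differed by -0.66 ± 0.13 (adjusted p = 0.0107, and 0.165 and 0.105 without its AngII or its AngII+CsA array). A second Cdkn1b probe had number means of 3.32, 2.60, 2.66 and 1.89. Cdkn1a (p21), a target of p53, was at 0.17, 0.66, 0.93 and 0.73 on the AngII arrays of numbers 1 to 4 and 0.52, 0.66, 0.83 and 0.59 on the AngII+CsA arrays and did not pass (adjusted p = 0.12). Cdkn2c (p18) had a range over numbers of 0.18 by its brightest probe (adjusted p = 0.741) and of 0.47 by a second probe that shares 40 bases with it (adjusted p = 0.0612, tested probe by probe).

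How many members passed among numbers rested on single arrays, as it did for all genes. The count of 23 fell to 11 (33.3%, against 38.9% of all genes) without the AngII array of number 4 and to 12 (36.4%, against 40.4%) without its AngII+CsA array. It fell to 14 (42.4%) without either array of number 2, against 42.5% and 46.9% of all genes, and to 15 (45.5%) without both arrays of number 2 or of number 4, against 53.1% and 43.9%. Only Ccnd1, Ccnd3, Ccne1, E2f1, Myc, Pcna and Cdkn1b passed in all 23 settings. Under the 4 other scalings or background corrections, 12 members passed throughout, those 7 with Ccne2, Cdk4, Cdc2a, Mcm6 and Plk1. Mcm7 missed the threshold with quantile normalization (adjusted p = 0.0606), the other percentile (0.0666) and the authors' table (0.0576). Leaving out arrays of numbers 2, 3 or 4 gave adjusted p values above the threshold, of 0.0749 to 0.673 for Foxm1, 0.0502 to 0.116 for Mcm3, 0.0577 to 0.553 for Mcm6, 0.0595 to 0.201 for Cdc20, 0.0564 to 0.145 for Ccnb1, 0.0651 to 0.133 for Kif20a and 0.0716 to 0.111 for Tyms. Leaving out arrays of numbers 2 or 4 gave 0.0539 to 0.0645 for Mcm7, 0.0552 to 0.0829 for Cdc2a and 0.0532 to 0.0718 for Plk1, and leaving out those of number 4 gave 0.0637 to 0.0808 for Cenpe. For Bub1 an AngII or AngII+CsA array of number 4 left out gave 0.0515 and 0.0599, and for Rrm1 leaving out number 1 gave 0.216. With normexp background correction the F tests of Bub1, Ccnb2, Cenpe, Kif20a, Rrm1 and Tyms missed the threshold.

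Contractile genes also differed among the numbers. The smooth muscle actin Acta2 had means of 5.59, 7.19, 8.75 and 8.49 in numbers 1 to 4 and Tagln had 7.31, 8.77, 9.25 and 9.44, and 7 of 9 tested smooth muscle markers were lowest in number 1. The summed linear level of these 9 markers was 256 in number 1, 720 in number 2, 1288 in number 3 and 1240 in number 4. It ranged from 291 to 1376 on AngII arrays and from 222 to 1209 on AngII+CsA arrays. Such a sum adds levels of different probes, so the bright probes of Acta2 and Tagln made up most of it. Fibroblast markers had different orders: Pdgfra had means of 6.61, 5.49, 5.46 and 4.94 and Cd248 had 3.66, 4.23, 6.57 and 6.17. Summed levels ranged from 73.9 to 154 (AngII) and 65.8 to 135 (AngII+CsA) for 5 of 6 fibroblast markers, from 0.711 to 1.01 and 0.555 to 0.819 for 5 of 9 endothelial markers, from 1.02 to 2.36 and 1.48 to 2.30 for 2 of 6 macrophage markers, and from 1.09 to 2.02 and 1.00 to 1.55 for 3 of 6 T cell markers. The part of these in the members' differences was not tested.

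With cyclosporin A no member passed the test, and the largest differences were in Mcm5 and Tk1, where some arrays were not above background. None of the 33 passed for AngII+CsA against AngII, either on the groups alone (0% of all genes passed) or with the replicate block (0.0269% of all genes passed), by limma with Benjamini-Hochberg adjustment. At an unadjusted p under 0.05 none of the 33 passed on the groups alone (0.249% of all genes lower and 0.0336% higher). With the block, 2 were lower (6.06%, against 3.86% of all genes) and none higher (1.46% of all genes). The members' median difference was -0.08 log2, beside -0.03 for all genes, and turned to 0.06 without the AngII+CsA array of number 2. A difference beyond 0.5 in size was seen for 2 members, Mcm5 and Tk1, against 2.65% of all genes. Of the 33, 19 were below 0 (57.6%, against 56.6% of all genes), and no member had all AngII+CsA arrays below or above all AngII arrays (0.269% and 0.0942% of all genes did).

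**Figure D4:**
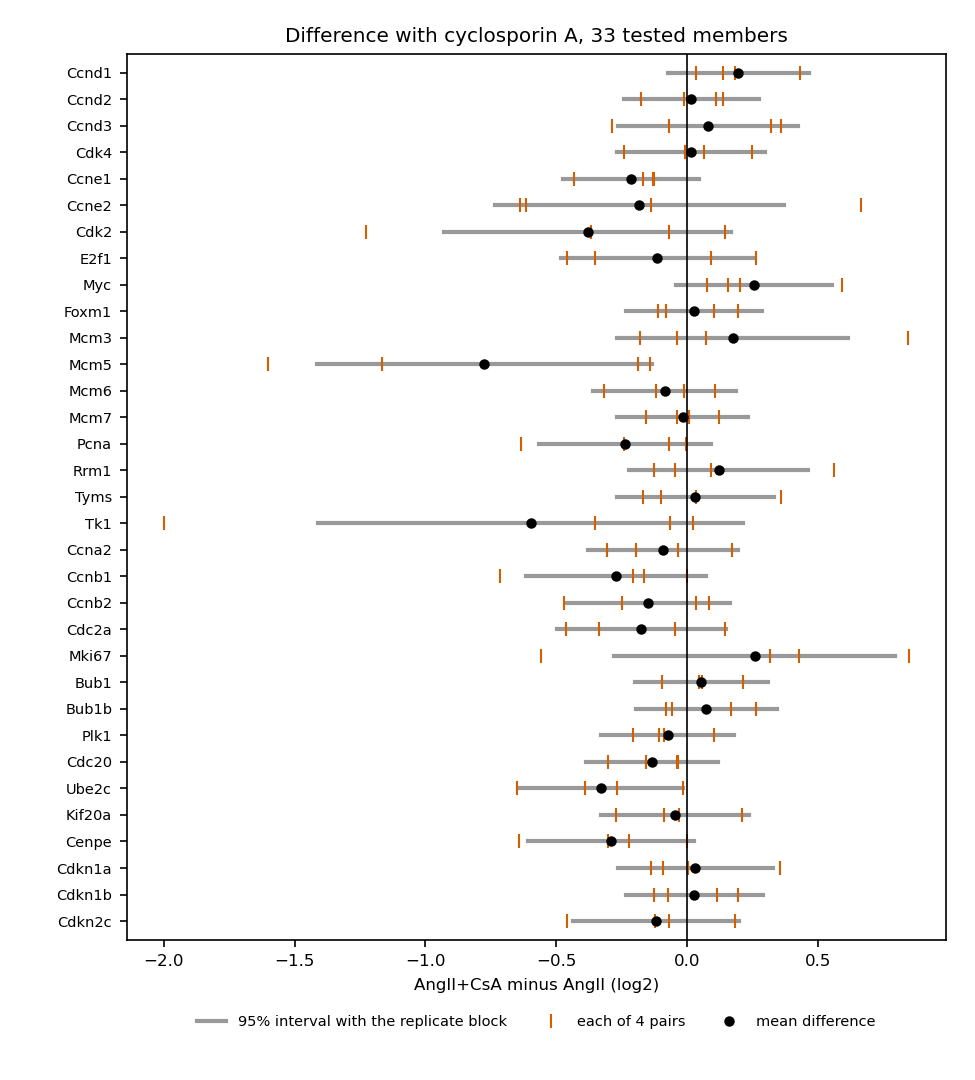
AngII+CsA minus AngII (log2) for the 33 tested members, with a dot for the mean difference, an orange tick for each of 4 pairs of the same replicate number and a grey bar for the 95% interval from limma with the replicate block. Intervals of 31 members cross 0; those of Mcm5 and Ube2c lie below it.

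Differences with an unadjusted p under 0.05 were those of Mcm5 and Ube2c. Mcm5 differed by -0.77 (95% interval -1.41 to -0.14 with the block; limma adjusted p = 0.885), from pair differences of -1.17, -0.19, -1.60 and -0.14. The large values were in pairs 1 and 3, where the AngII+CsA arrays were not above background. Ube2c was at -1.34, -1.11, -1.24 and -1.21 on the AngII arrays of numbers 1 to 4 and -1.74, -1.76, -1.25 and -1.48 on the AngII+CsA arrays and differed by -0.33 (interval -0.65 to -0.02; limma adjusted p = 0.885). All pairs were lower with cyclosporin, though pair 3 by only 0.02, and the groups overlapped.

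In all 7 members were lower in every pair (21.2%, against 10.2% of all genes): Ccne1, Mcm5, Pcna, Ccnb1, Cdc20, Ube2c and Cenpe. For 3 of them at least 1 pair was lower by less than 0.01. Cyclin E1 had pair differences of -0.43, -0.17, -0.13 and -0.13, Pcna of -0.64, -0.24, -0.0036 and -0.07 and Ccnb1 of -0.72, -0.21, -0.0016 and -0.17. In Pcna and Ccnb1 the largest difference was in number 1, and number 3 was nearly level. Cdc20 had pair differences of -0.30, -0.04, -0.16 and -0.03 and Cenpe of -0.64, -0.00039, -0.22 and -0.30. Only Ccnd1 and Myc were higher in every pair (6.06%, against 4.79% of all genes), with mean differences of 0.20 (interval -0.07 to 0.46) and 0.26 (interval -0.04 to 0.55). Both intervals included 0.

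By role, the median difference was 0.01 in the 7 G1 cyclins and kinases, 0.03 in the 3 transcription factors, -0.05 in the 4 origin genes, -0.10 in Pcna, Rrm1, Tyms and Tk1, -0.15 in the 5 S and M phase genes, -0.08 in the 5 mitotic kinase and anaphase genes, -0.17 in the 2 spindle genes and 0.03 in the 3 inhibitors. Tk1 had the next largest difference after Mcm5, -0.60 (interval -1.41 to 0.21), with pair 1 at -1.998. Its other pairs lay between -0.35 and 0.02. Mki67 was at -2.72, -2.78, -2.58 and -2.25 on the AngII arrays of numbers 1 to 4 and -1.87, -3.34, -2.16 and -1.93 on the AngII+CsA arrays, and its difference of 0.26 (interval -0.28 to 0.79) joined 3 higher pairs with 1 lower pair. For the inhibitors Cdkn1a and Cdkn1b the intervals were -0.26 to 0.33 and -0.24 to 0.29, and for cyclin D2 and Cdk4 they were -0.24 to 0.27 and -0.27 to 0.30.

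Mcm3 depended on its probe for direction, with a difference of 0.17 by the brightest probe and -0.14 by the other. Bub1, Bub1b, Plk1 and Cdc2a differed by 0.05, 0.07, -0.08 and -0.18. Ccne2 was at -0.64, -0.61, 0.66 and -0.14 in pairs 1 to 4, so it was lower in 3 pairs and higher in pair 3. E2f1 was higher in pairs 1 and 2 and lower in pairs 3 and 4, at 0.09, 0.26, -0.46 and -0.35. The sign of the difference turned under normexp background correction for 7 of the 33 members.

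In the lists of other cycle genes, 56.8% to 93.3% of the tested genes differed among numbers. Among 43 other replication genes on the array, 26 were tested, 20 differed among numbers (76.9%, against 68.1% of all genes) and none passed with cyclosporin. Pold2, a polymerase delta subunit, had number means of 0.82, 1.37, 2.92 and 2.40 (adjusted p = 0.00315), Uhrf1, a factor of DNA methylation maintenance, -4.23, -2.32, -4.61 and -1.94 (adjusted p = 0.00344), and Rpa3, a single-strand binding subunit, 3.65, 2.49, 2.36 and 1.81 (adjusted p = 0.0059). Pold2 was lowest and Rpa3 highest in number 1. For Uhrf1, the means of numbers 1 and 3 lay below the lowest signal above background on their arrays. That signal was -3.31 and -3.42 on the AngII and AngII+CsA arrays of number 1, and -3.03 and -3.19 on those of number 3. The Uhrf1 differences thus rest in part on signal near background. Of 72 other mitosis genes, 44 were tested, 25 differed among numbers (56.8%) and none passed with cyclosporin. By limma with the block, 6 of the 44 had an unadjusted p under 0.05 (3.86% of all genes were lower and 1.46% higher). In every pair, 8 of the 44 were lower and 2 higher, against 10.2% and 4.79% of all genes. There, Fbxo5, an inhibitor of the anaphase-promoting complex, was highest in number 1 (-0.61, -1.70, -2.07 and -2.49, adjusted p = 0.00258), and Cdc25c, the phosphatase that activates Cdk1, had the smallest unadjusted p with cyclosporin (0.00938; difference -0.44, lower in 4 of 4 pairs).

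Of 20 other cyclins and kinases, 15 were tested and 14 differed among numbers (93.3%, against 68.1% of all genes). Of the 15, 9 passed as higher in number 1 than the mean of the others, against 21.5% of all genes. In number 4, 11 passed as lower, against 18.8% of all genes. Ccnl1 and Ccnl2, cyclins tied to splicing, had number means of 3.43, 1.99, 1.30 and 0.59 and 5.09, 4.32, 3.37 and 2.62 (adjusted p = 0.00162 and 0.00153). Both were highest in number 1 and lowest in number 4, as were the members Myc, Pcna and Cdkn1b. Of 20 other E2F, Rb and DREAM genes, 14 were tested and 10 differed (71.4%), with Lin9, a DREAM subunit, at 0.30, -1.18, -1.29 and -1.80 and Tfdp1, the partner of E2F, at 3.94, 3.23, 3.27 and 2.56 (adjusted p = 0.00306 and 0.00399). None of these passed with cyclosporin. Rbl1 (p107) was higher in 4 of 4 pairs, by 0.32 (unadjusted p = 0.0245).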

How the data were processed

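Total RNA of 8 cultures was hybridised to 1-colour arrays of Agilent design 014868. Per the file headers, Feature Extraction 9.5.3.1 (protocol GE1-v5_95_Feb07) quantified the spots, and the processed signal deposited by the authors is a background-subtracted intensity on a linear scale. A deposited table of log2 values, used as an alternative, has column medians of 3.01 and columns that differ by at most 0.00185 after sorting, as quantile normalization leaves them. How it was made and the constant behind its scale stay unknown.

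Each intensity was put on the log2 scale, and the 75th percentile of its array was subtracted. Control and outlier spots were dropped, and repeated spots averaged. Probes well above background on at least 4 of 8 arrays were kept (19529 of 41174), and the probe with the highest mean stood for its gene. Probe coordinates are those in the files (build mm7), and exon or UTR position was not looked up. Bounds compare the brighter number's mean with a floor, per array the lowest signal above background or the probe's own value if higher.

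Tests used limma 3.58.1 in R 4.3.3 (lmFit, eBayes), two-sided, with Benjamini-Hochberg adjustment over all genes and a threshold of 0.05. AngII+CsA was compared with AngII on the groups alone, with the replicate block as the alternative, and numbers by a moderated F test and by each number against the mean of the other 3. The labels give the numbers. Same-numbered arrays deviated together from their group means (correlations of 0.70 to 0.86, against -0.76 to 0.26 for other array pairs), so the numbers were taken as pairs. The 47 members and the other gene lists were chosen with earlier results of these data known. Any member could be named, and in each other list up to 6 genes by p among numbers and up to 4 by p with cyclosporin.

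The fits were tested on simulated data over 14857 genes. For AngII+CsA against AngII, the fit without numbers found 0% of simulated differences at sizes of 0.5 and 1 log2, and 60.4% at 2 log2. With the replicate block, recovery was 13.6% at 0.5 log2, 90.6% at 1 log2 and 99.6% at 2 log2. Each simulation held a planted set of changed genes, whereas in the data 4 genes passed with the block. Whether these shares hold with so few passing genes was not tested. Only 2 of the 33 tested members had a cyclosporin difference beyond 0.5 log2. The lack of a passing member therefore does not show that differences of that size or smaller were absent. The F test among numbers found 0.4% of simulated differences at a size of 0.5 log2, 35% at 1 log2 and 96.4% at 2 log2. In the data 68.1% of all genes passed that F test. Whether the simulated shares hold with so many genes differing was not tested. Mean false calls per simulation were 0, 11.6 and 9.4 for these 3 fits. Alternatives changed the background correction, the scaling, the detection filter, outlier spots, probe choice, the variance model or the table used, or left out arrays. The normexp correction was run with a constant added to every signal, which by itself shrinks log2 differences of dim probes. The part of this constant in the smaller contrasts under normexp was not tested.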

Additional observations from a re-analysis of the deposited data

Results flagged for a closer look

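Of 94 sets of 4 arrays examined (each member in each group), 5 had 1 array far from the other 3, relative to the range of the set. Chance alone marks about 1 in 20 such sets. Ccne2 was at 0.44 on the AngII array of number 1, with the others between -1.76 and -1.43. Rrm1 was at -1.83 on the AngII+CsA array of number 1, against -3.18 to -3.11. Bub1 was at -1.63 on the AngII array of number 1, against -2.35 to -2.30. Cdkn2c was at 2.86 on that array, against 2.52 to 2.55. Top2a was at -1.68 on the AngII array of number 4, the only array where it was above background, against -5.56 to -5.22. Of these arrays, 3 were the AngII array of number 1. For Ccne2, Rrm1 and Bub1 both arrays of number 1 were the highest of all 8. The cause was not tested.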

How the results depend on the processing

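The replicate block, which here equals a slide block, changed no member's call: 0 members passed for AngII+CsA against AngII under every setting. Over all genes, 0 passed on the groups alone, 4 with the replicate block and 6 with the number as a random block. With the block, 3 passed under normexp, and 2 each under quantile normalization, the authors' table and every probe tested on its own, the latter 3 chosen after seeing the data. With the block, 0 genes passed with no filter on dim probes and without any 1 of the 4 numbers. The members' median difference ranged from -0.128 to 0.0555 when single arrays were left out, the latter without the AngII+CsA array of number 2. Among numbers, 15387 genes passed with no detection filter, where 28744 were tested, against 10111. Leaving out an array or a number gave 5784 to 11204 genes and 11 to 26 members. These fits held fewer arrays. The sign of the cyclosporin difference never turned for 10 of the 33 members. Probes near background limit Mcm5, Tk1, Cenpe, Ccnb2 and Rrm1, the third Tyms probe and, among the other genes, Uhrf1.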

Other observations

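Growth arrest genes and p53 targets were also listed, 25 on the array and 21 tested. Of these, 11 differed among numbers (52.4%, against 68.1% of all genes by the limma F test, adjusted) and 0 passed for AngII+CsA against AngII. At an unadjusted p under 0.05, 0 passed on the groups alone and 3 with the replicate block, all lower. With the block, 3.86% of all genes were lower and 1.46% higher at that p. Btg2, an antiproliferative early response gene, differed by -0.55 (unadjusted p = 0.00473), with pair differences of -0.60, -0.86, -0.51 and -0.23. Btg1 differed by -0.29 and the stress kinase Plk3 by -0.28 (unadjusted p = 0.0418 and 0.0437), and both were lower in 4 of 4 pairs. All 3 adjusted p values were 0.885. Gas1, a growth arrest gene, had number means of 0.80, -0.68, -0.40 and -0.85 (adjusted p = 0.00383), with number 1 highest.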
